A study of Mus musculus with 10 samples.

Results

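The genes described here are the nuclear-encoded members of respiratory complexes II to V, the succinate dehydrogenase, cytochrome bc, cytochrome c oxidase and ATP synthase complexes of the mitochondrial inner membrane, together with the electron carrier cytochrome c. They were taken by gene symbol: names of the form Sdha to Sdhd, those that begin with Uqc, with Cox4 to Cox8 or with Atp5, and Cyc1 and Cycs. This gave 49 of the 13492 genes in the table, with 4 in complex II, 12 in complex III, 15 in complex IV, 17 in complex V and 1 for cytochrome c. The symbol rule also admits the complex III assembly factors Uqcc1, Uqcc2 and Uqcc3, and Cox7a2l, a relative of the complex IV subunit gene Cox7a2.

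The tissue was the tibialis anterior, a muscle of the shin built mainly of fast fibres, from C57BL/6 mice that were 6 months old and had been fasted for 3 h. The mice are labelled Lrtm1 KO (5 libraries) and, as controls, Lrtm1 WT (5 libraries), which the series' text calls flox controls. Both groups came from 3 litters. Litter 108 gave 2 KO and 1 WT libraries, litter 110 gave 1 KO and 2 WT, and litter 112 gave 2 KO and 2 WT. What drives the deletion and which part of Lrtm1 it removes were not stated in the labels, and the series' text gives 4 animals per group where the labels give 5 libraries. No label ties a library to an animal of its own, and the p-values therefore speak of the variation among these 10 libraries.

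Complex II takes electrons from succinate in the citric acid cycle, complex III passes them to cytochrome c, complex IV hands them to oxygen, and complex V uses the resulting proton gradient to make ATP. Complexes III to V also hold subunits encoded in mitochondrial DNA, so each is assembled from the products of both genomes. Several complex IV subunits exist as a general form and a form of heart and skeletal muscle, and subunit c of the ATP synthase ring is encoded by Atp5g1, Atp5g2 and Atp5g3, whose mature proteins are the same and whose import signals differ.

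The values are adjusted log2 CPM as deposited, that is, log2 of counts made relative to each library's total (CPM) after the authors removed litter and further terms, and the depth behind them is unknown. Lrtm1 itself was not lower in the KO libraries. It stood at 6.12 ± 0.10 log2 CPM in KO libraries and 5.68 ± 0.07 in WT libraries (SD, n = 5 each), a difference of 0.44 (adjusted p = 0.0334, limma), so every direction below is between the libraries labelled KO and those labelled WT. Fast-muscle markers marked the tissue: 8 of 8 were in the table, with Myh4, a fast myosin heavy chain, at 15.07 log2 CPM in KO and 14.94 in WT libraries. Of 5 cardiac markers only Myh6 was in the table, and of 4 brown fat markers Ucp1 and Cidea were not.

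The members together made up 1.54% of CPM on average. Transcript levels of different genes were compared as log2 CPM per kilobase of the median protein-coding transcript in the annotation. On this scale the median member stood at 8.08, and the complex medians were close, at 7.95 for complex II, 8.15 for complex III, 8.01 for complex IV and 8.17 for complex V. Within complexes the spread was much wider, from 0.91 to 10.22.

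The highest level per kilobase belonged to Atp5b, the catalytic beta subunit of ATP synthase, at 10.22 (10.16 to 10.33 over the 10 libraries), which stood apart from its neighbour Atp5a1, the alpha subunit, at 9.76 (9.69 to 9.83). Uqcrc1, a core subunit of complex III, followed at 9.64, Cox4i1 at 9.54, Cox6a2 at 9.45 and Atp5g3 at 9.32, with ranges that overlapped from each to the next. The place of Uqcrc1 rests on the transcript length used: its median coding transcript is 0.53 kb and its principal one 1.65 kb, and with the principal length it drops to 8.01 and to rank 20 of 49. Atp5b, Atp5a1, Cox4i1, Cox6a2 and Atp5g3 held the top 5 ranks with the principal length.

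At the lower end of the order, Cycs, the soluble carrier cytochrome c, stood at 5.59 log2 CPM per kilobase, Cox8a at 5.11, Uqcc3 at 4.70, Cox6a1 at 4.33, Atp5g2 at 4.23 and Cox4i2 at 0.91. The ranges of Cox6a1 and Atp5g2 overlapped, and the others in this group were apart from their neighbours in every library. Of these low genes, Cox8a, Cox6a1, Atp5g2 and Cox4i2 are the less abundant partners of isoform pairs.

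**Figure D1:**
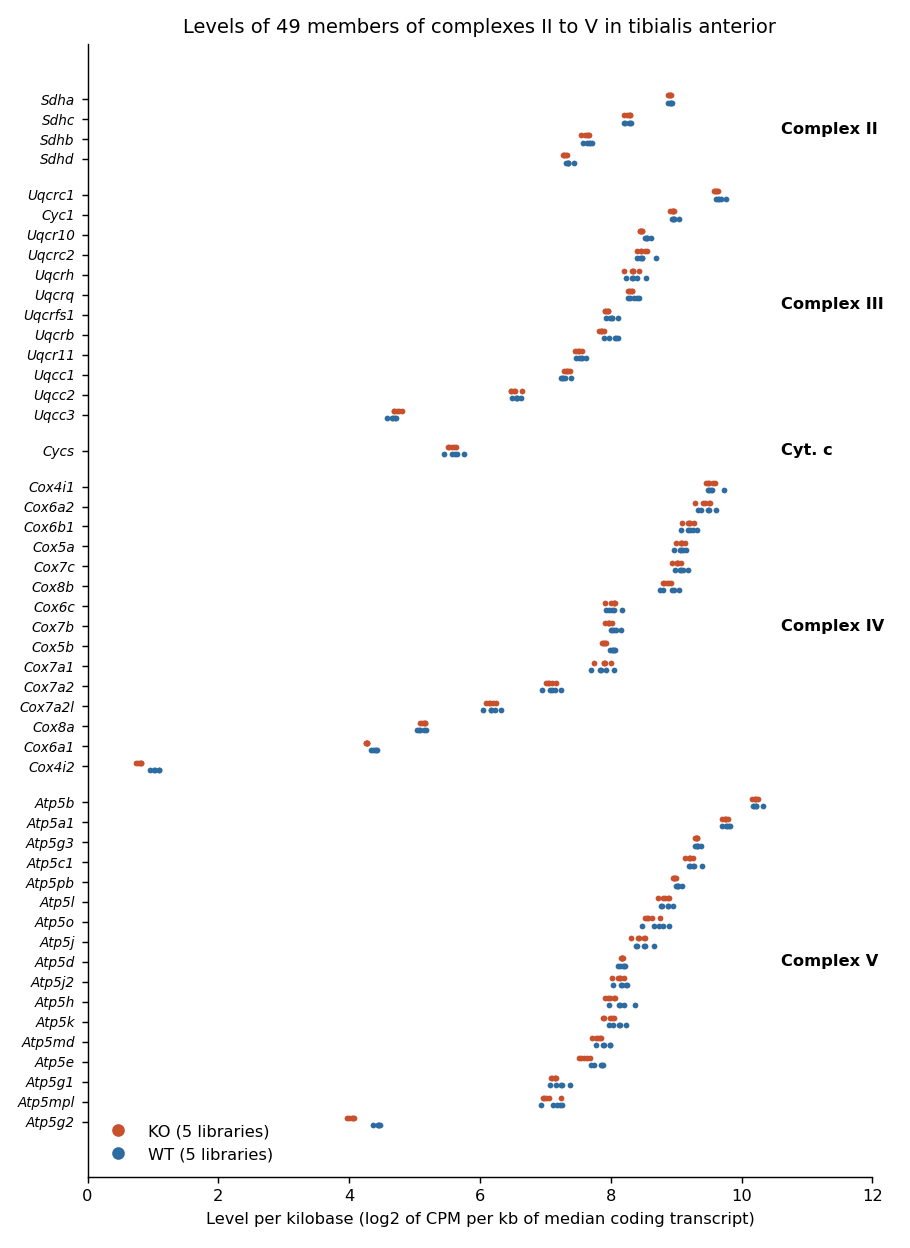
Level of each of the 49 members in each library (x axis, log2 CPM per kilobase of median coding transcript; KO in orange above WT in blue, 5 libraries each), ordered within complexes. Members range from 0.91 for Cox4i2 to 10.22 for Atp5b, and in most rows the KO and WT points lie on top of each other.

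The muscle forms of complex IV subunits outweighed the general forms in 3 pairs. Cox6a2 was 34.8-fold higher per kilobase than Cox6a1, a log2 ratio of 5.12 that ran from 4.93 to 5.25 over the libraries. Cox8b was 13.6-fold higher than Cox8a, with a log2 ratio of 3.76 (3.57 to 4.02). Cox7a1 exceeded Cox7a2 by much less, 1.73-fold, with a log2 ratio of 0.79 (0.60 to 0.90); the fold was 1.57 with the longest and 1.93 with the principal transcript.

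The other pairs held no form particular to muscle. Cox4i1 was 396-fold higher per kilobase than Cox4i2, a form known from lung and other tissues in which it responds to oxygen. Cox7a2 was 1.89-fold higher than Cox7a2l. Among the subunit c genes Atp5g3 was 4.42-fold higher than Atp5g1 and 33.9-fold higher than Atp5g2; the first of these folds became 6.49 with the longest and 7.73 with the principal transcripts, since Atp5g1 has a long annotated form.

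**Figure D2:**
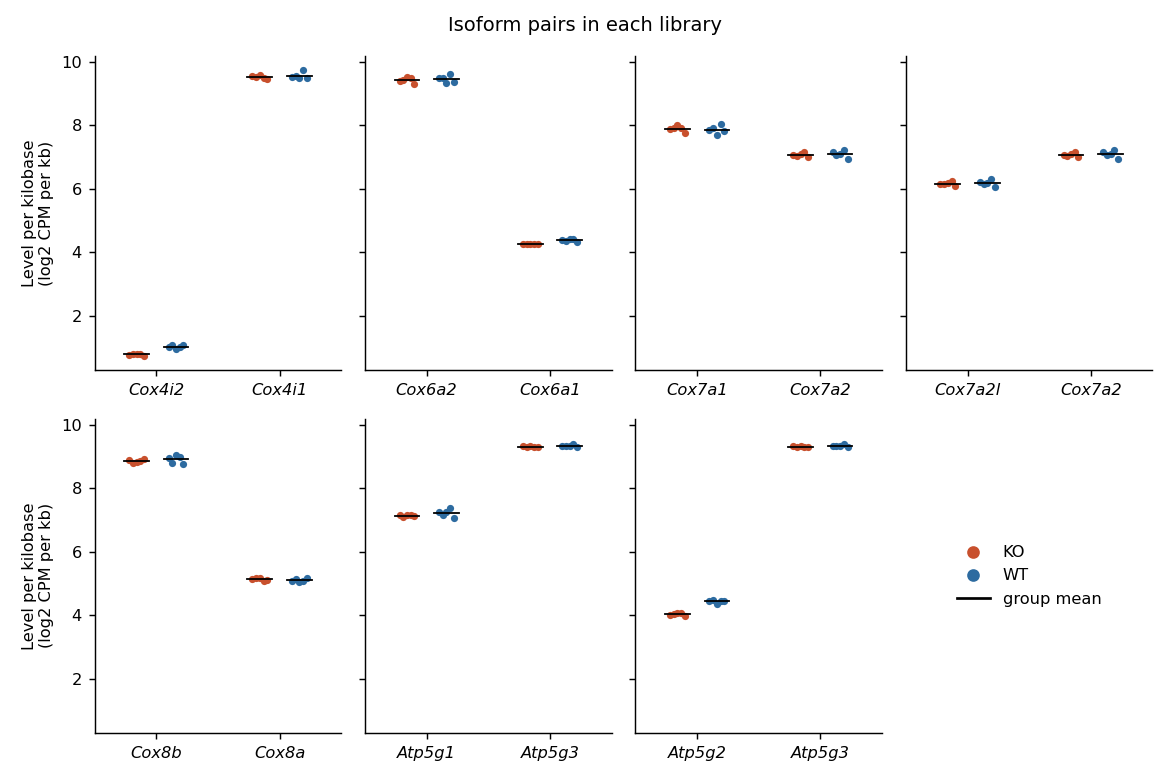
Level of both genes of each of 7 isoform pairs in every library (y axis, log2 CPM per kilobase of median coding transcript; KO in orange left of WT in blue, 5 libraries each, bars at group means). The gaps between the genes of a pair run from 0.79 (Cox7a1 over Cox7a2) to 8.63 (Cox4i1 over Cox4i2) and are wider than any gap between genotypes; KO and WT points are apart in Cox4i2, Cox6a1 and Atp5g2.

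Promoters are shown for Atp5g2 and Atp5g3, whose ratio was called different between genotypes in the reported fit described below. They are also shown for the muscle form Cox8b and the general form Cox8a. All come from the RefSeq table on GRCm38.p6 and run from 250 bases before to 50 bases after the annotated start, on the gene's strand. Capitals mark matches, on either strand, to the motifs searched. Atp5g2 lies at chr15:102670998-102671297 and Atp5g3 at chr2:73911277-73911576, and Cox8b at chr7:140900397-140900696 and Cox8a at chr19:7217567-7217866, all on the minus strand.
Atp5g2: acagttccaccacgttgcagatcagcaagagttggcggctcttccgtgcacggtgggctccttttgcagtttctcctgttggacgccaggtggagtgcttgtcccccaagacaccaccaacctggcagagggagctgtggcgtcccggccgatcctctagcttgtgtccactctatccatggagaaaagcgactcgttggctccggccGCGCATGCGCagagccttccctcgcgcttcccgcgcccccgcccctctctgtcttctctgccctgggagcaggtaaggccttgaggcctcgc
Atp5g3: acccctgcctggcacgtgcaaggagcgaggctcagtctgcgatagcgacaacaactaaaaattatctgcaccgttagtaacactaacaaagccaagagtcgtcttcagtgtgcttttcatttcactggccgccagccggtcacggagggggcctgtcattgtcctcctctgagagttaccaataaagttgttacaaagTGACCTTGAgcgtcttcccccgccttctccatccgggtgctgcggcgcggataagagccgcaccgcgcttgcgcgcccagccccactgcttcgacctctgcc
Cox8b: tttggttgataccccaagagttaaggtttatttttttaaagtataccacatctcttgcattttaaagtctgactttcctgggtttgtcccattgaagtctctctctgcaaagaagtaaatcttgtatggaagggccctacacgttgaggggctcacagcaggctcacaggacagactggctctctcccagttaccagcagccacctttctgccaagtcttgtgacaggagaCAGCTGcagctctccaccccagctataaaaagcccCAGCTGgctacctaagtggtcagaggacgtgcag
Cox8a: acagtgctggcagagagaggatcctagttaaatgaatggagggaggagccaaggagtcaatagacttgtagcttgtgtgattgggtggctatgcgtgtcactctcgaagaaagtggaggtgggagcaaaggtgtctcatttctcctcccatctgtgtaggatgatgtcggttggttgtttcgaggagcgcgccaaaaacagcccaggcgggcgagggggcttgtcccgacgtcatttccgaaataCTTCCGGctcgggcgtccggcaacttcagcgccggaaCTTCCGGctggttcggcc
In Atp5g2 the capitals are 2 overlapping matches to the NRF1 motif GCGCATGC, from 42 to 33 bases before the RefSeq start. In the GENCODE annotation Atp5g2 runs from 102662864 to 102672352, so this window lies inside the gene and downstream of its outermost start. In Atp5g3 they are a match, on the other strand, to the ERR motif TCAAGGTCA, from 52 to 44 bases before the start. Cox8b held the palindromic E-box CAGCTG on 2 occasions and Cox8a the ETS motif CCGGAAG on 2 occasions, both times on the other strand. A match is a run of letters and not a shown binding site.

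Of the 49 members, 38 had a promoter in that table; Atp5a1, Atp5mpl, Cox4i1, Cox4i2, Cox6a2, Cox6c, Cyc1, Sdhc, Uqcrb, Uqcrc2 and Uqcrq had none. NRF1, a factor named for respiratory genes, had its motif GCGCATGC in 8 of 38 member promoters (21.1%), against 2.80% of the promoters of all 27025 genes. These were Atp5g2, Atp5k, Atp5l, Cox6a1, Cycs, Sdhb, Uqcr11 and Uqcrc1. The motif CCGGAAG of ETS factors, the family of NRF2, was in 12 of 38 (31.6%) against 9.12%, and 5 members held both motifs: Atp5k, Atp5l, Cox6a1, Sdhb and Uqcr11.

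The ERR motif TCAAGGTCA was in 2 of 38 members (5.26%), Atp5g3 and Sdhd, against 0.407% of all genes. The YY1 motif AAGATGGCG was in 1, Atp5j2 (2.63%), against 1.49%. The E-box CAGCTG, which muscle regulatory factors bind, was in 3 (7.89%), Atp5b, Cox8b and Uqcc3, against 16.1%, and no member held the MEF2 motif, against 3.26%. Member promoters had a median GC content of 56.5%, against 52.7% over all genes. The motif GCGCATGC reads nearly the same on both strands, so a palindromic run counts as 2 matches in Atp5g2, Atp5k, Cox6a1 and Uqcrc1.

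Between genotypes, no member passed the threshold (Benjamini-Hochberg adjusted p under 0.05, limma with litter and the removed terms in the fit). This 0 of 49 stands beside 0.335% of all 12223 genes tested. At an unadjusted p under 0.05 there were 4 members (8.16%), against 10.1% of all genes: Atp5g2, Atp5e, Uqcrb and Cox5b, each with a negative difference. A fit with litter and genotype only, which counts more residual degrees of freedom than the adjusted values hold, called 5 members lower (10.2%) and none higher. That fit called 3.48% of all genes lower and 8.62% in either direction. Because these are whole muscles, fewer cells of a type and less RNA per cell cannot be told apart in any value here.

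**Figure D3:**
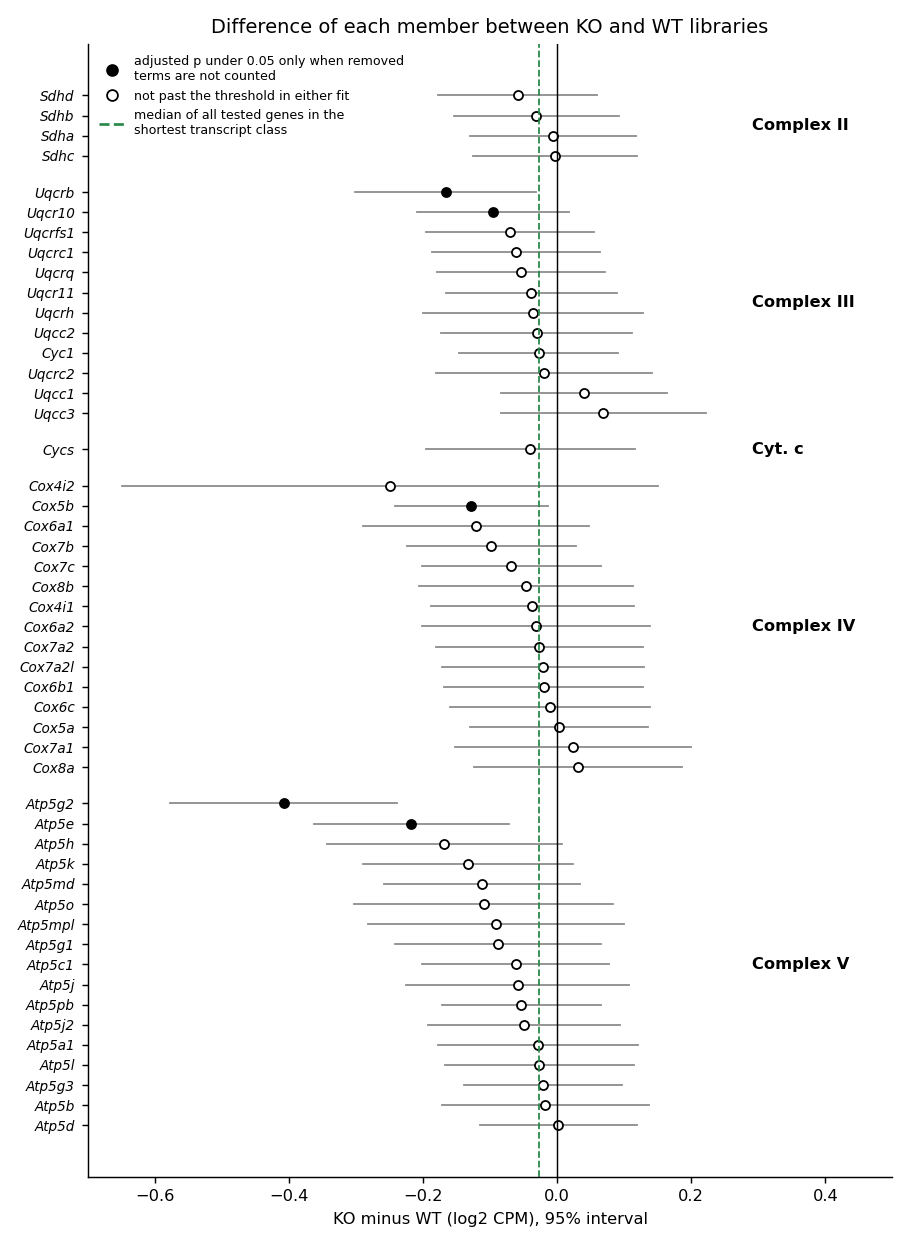
Difference of each member (x axis, KO minus WT in log2 CPM, with 95% intervals), ordered within complexes. Filled points had an adjusted p under 0.05 in the fit with litter and genotype alone and not in the reported fit. The points run from -0.41 for Atp5g2 to 0.07 for Uqcc3, 43 of 49 lie left of 0, and the dashed line is the median of all tested genes with transcripts as short, -0.027.

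The 4 members of complex II had a median difference of -0.018 log2, which was -0.040 without KO replicate 3, -0.0027 without KO replicate 5 and -0.0079 with each library centred within classes of transcript length. None passed the threshold, and the groups overlapped in all 4. Sdha, the flavoprotein that oxidises succinate, averaged 9.76 ± 0.02 log2 CPM in KO libraries and 9.77 ± 0.02 in WT libraries (SD, n = 5 each), with an interval of the difference from -0.13 to 0.12. Sdhb, the iron-sulfur subunit, had a difference of -0.03 (-0.15 to 0.09).

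Of the membrane anchors of complex II, Sdhc differed by -0.0034 (-0.13 to 0.12). Sdhd, the other anchor, had 7.62, 7.59, 7.63, 7.59 and 7.57 log2 CPM in KO replicates 1 to 5, against 7.65, 7.65, 7.64, 7.74 and 7.62 in WT replicates 1, 3, 4, 5 and 6. WT replicate 5 was the highest library, and KO replicates 1 and 3 met WT replicate 6. Its difference of -0.06 (SE 0.05) had an adjusted p of 0.775 (limma).

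In complex III, 10 of 12 members had negative differences, with a median of -0.038 log2, and none passed the threshold. Centred within classes of transcript length, the median was -0.0074, and without KO replicate 3 it was -0.058. Uqcrb, a small subunit that takes part in ubiquinone binding, had 6.96, 6.92, 6.96, 6.998 and 6.96 log2 CPM in KO replicates 1 to 5, against 7.16, 7.08, 7.18, 7.21 and 7.002 in WT replicates 1, 3, 4, 5 and 6. All KO libraries lay below all WT libraries, although KO replicate 4 and WT replicate 6 nearly met. The difference was -0.17 (SE 0.06, interval -0.30 to -0.03), with an adjusted p of 0.378, and of 0.0482 with litter and genotype only (limma).

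Uqcr10, another small subunit, was the tightest of these genes. It had 7.27, 7.25, 7.27, 7.25 and 7.24 log2 CPM in KO replicates 1 to 5, against 7.35, 7.34, 7.35, 7.41 and 7.31 in WT replicates 1, 3, 4, 5 and 6. The groups were apart, the difference was -0.10 (SE 0.05) and the adjusted p was 0.573, or 0.0485 with litter and genotype only (limma).

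The electron-carrying subunits of complex III showed small values. Uqcrfs1, the Rieske iron-sulfur protein, averaged 8.39 ± 0.02 log2 CPM in KO libraries and 8.46 ± 0.06 in WT libraries, with a difference of -0.07 (-0.20 to 0.06). Cyc1, the heme subunit that reduces cytochrome c, averaged 8.46 ± 0.02 in KO and 8.49 ± 0.04 in WT libraries, with a difference of -0.03 (-0.15 to 0.09). Of the core subunits, Uqcrc1 averaged 8.70 ± 0.03 in KO and 8.76 ± 0.06 in WT libraries, with a difference of -0.06 (-0.19 to 0.06), and Uqcrc2 differed by -0.02 (-0.18 to 0.14). Of the small subunits, Uqcrq (-0.05), Uqcr11 (-0.04) and the hinge protein gene Uqcrh (-0.04) overlapped between genotypes, as did the assembly factor Uqcc2 (-0.03). The assembly factors Uqcc1, at 0.04, and Uqcc3, at 0.07, were the members of the complex III group above 0, and neither passed the threshold (adjusted p = 0.865 and 0.797, limma).

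Cycs, to which complex III passes its electrons, had 7.21, 7.18, 7.24, 7.28 and 7.16 log2 CPM in KO replicates 1 to 5, against 7.30, 7.21, 7.27, 7.41 and 7.09 in WT replicates 1, 3, 4, 5 and 6. The WT libraries held both the highest and the lowest value, in replicates 5 and 6 of the same litter. The difference was -0.04, with an interval from -0.20 to 0.12.

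In complex IV, 12 of 15 members had negative differences, with a median of -0.032 log2, and none passed the threshold. Centred within classes of transcript length, the median was -0.0061, and with each library left out it ran from -0.071 without KO replicate 3 to 0.017 without WT replicate 5. Cox5b, a subunit on the matrix side, had 7.21, 7.22, 7.23, 7.25 and 7.19 log2 CPM in KO replicates 1 to 5, against 7.37, 7.35, 7.34, 7.39 and 7.31 in WT replicates 1, 3, 4, 5 and 6. All KO libraries lay below all WT libraries. The difference was -0.13 (SE 0.05, interval -0.24 to -0.01), with an adjusted p of 0.427, and of 0.0201 with litter and genotype only (limma).

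The general isoform Cox6a1 had 3.46, 3.44, 3.46, 3.47 and 3.46 log2 CPM in KO replicates 1 to 5, against 3.59, 3.56, 3.60, 3.62 and 3.53 in WT replicates 1, 3, 4, 5 and 6. Its groups were apart, with a difference of -0.12 (SE 0.08, adjusted p = 0.653, limma). Its muscle partner Cox6a2 ran from 8.73 to 8.96 in KO libraries and from 8.78 to 9.06 in WT libraries, which overlap, with a difference of -0.03 (-0.20 to 0.14). The log2 ratio of Cox6a2 to Cox6a1 differed by 0.09 (-0.08 to 0.25, adjusted p = 0.749, limma).

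Cox4i2 had 0.31, 0.36, 0.36, 0.35 and 0.29 log2 CPM in KO replicates 1 to 5, against 0.57, 0.63, 0.50, 0.56 and 0.64 in WT replicates 1, 3, 4, 5 and 6. The groups were apart, but the gene was near the minimum of 0 log2 CPM for testing, where the fit expects a wide spread. Its difference of -0.25 had an interval from -0.65 to 0.15 (adjusted p = 0.703, limma). Cox4i1, which carries nearly all of this subunit's transcript, averaged 9.10 ± 0.06 in KO and 9.14 ± 0.10 in WT libraries, and the ratio of Cox4i2 to Cox4i1 differed by -0.21 (adjusted p = 0.382, limma).

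The remaining isoforms of complex IV overlapped between genotypes. Cox7a1 averaged 6.70 ± 0.09 log2 CPM in KO and 6.68 ± 0.12 in WT libraries, and Cox7a2 averaged 6.48 ± 0.06 in KO and 6.50 ± 0.11 in WT libraries; the log2 ratio of Cox7a1 to Cox7a2 differed by 0.05 (-0.12 to 0.22). Cox8b averaged 7.38 ± 0.05 in KO and 7.43 ± 0.12 in WT libraries and Cox8a 4.27 ± 0.03 in KO and 4.24 ± 0.06 in WT libraries; the log2 ratio of Cox8b to Cox8a differed by -0.08 (-0.29 to 0.13). Neither ratio passed the threshold (adjusted p = 0.878 and 0.836, limma). Cox7b, a small subunit, ran from 7.91 to 8.02 log2 CPM in KO and from 8.01 to 8.16 in WT libraries, which overlap, with a difference of -0.10 (-0.22 to 0.03, adjusted p = 0.620, limma). The subunits without a second form in these data, Cox5a (0.0035), Cox6b1 (-0.02), Cox6c (-0.01) and Cox7c (-0.07), overlapped between genotypes too.

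Cox7a2l and Cox7a2 kept the steadiest proportion of the 7 pairs. Cox7a2l ran from 6.23 to 6.38 log2 CPM in KO and from 6.19 to 6.46 in WT libraries, while its log2 CPM ratio to Cox7a2 lay between -0.18 and -0.16 in KO and between -0.19 and -0.16 in WT libraries. The ratio differed by 0.0057 (adjusted p = 0.983, limma). The SD of the ratio was 0.0077 in KO and 0.014 in WT libraries, in values whose residual variation spans only 3 directions.

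In complex V, 16 of 17 members had negative differences, with a median of -0.062 log2, and none passed the threshold. Centred within classes of transcript length, the median was -0.031, and with each library left out it ran from -0.097 without KO replicate 3 to -0.035 without WT replicate 5. Atp5g2 (ENSMUSG00000062683), which lies on chromosome 15 from 102662864 to 102672352 on the minus strand in GRCm38, had the largest difference of all members. It had 3.45, 3.50, 3.52, 3.52 and 3.41 log2 CPM in KO replicates 1 to 5, against 3.90, 3.93, 3.81, 3.90 and 3.90 in WT replicates 1, 3, 4, 5 and 6. Every KO library lay below every WT library, with a gap wider than the range within either group. These ranges leave out the variation removed before deposit. Of all genes tested, 7.63% also had every KO library below every WT library. In CPM the gene averaged 11.2 ± 0.36 in KO and 14.8 ± 0.46 in WT libraries (SD, n = 5 each), 1.33-fold higher in WT.

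The difference of Atp5g2 was -0.41 (SE 0.08, interval -0.58 to -0.24). It had an unadjusted p of 0.000272 and missed the threshold with an adjusted p of 0.0640 (limma). With litter and genotype only, its adjusted p was 0.0016, with the replicate block 0.0272, and over 19 alternatives it ran from 0.0016 to 0.277 and passed in 5.

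Atp5g3, which supplies most of the subunit c transcript, had 8.85, 8.82, 8.84, 8.82 and 8.82 log2 CPM in KO replicates 1 to 5, against 8.85, 8.84, 8.86, 8.91 and 8.81 in WT replicates 1, 3, 4, 5 and 6. The groups overlapped, with a difference of -0.02 (-0.14 to 0.10). Atp5g1 overlapped as well, at 8.55 ± 0.03 in KO and 8.64 ± 0.11 in WT libraries, with a difference of -0.09 (-0.24 to 0.07), and its log2 ratio to Atp5g3 differed by -0.07 (adjusted p = 0.774, limma).

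The ratio of Atp5g2 to Atp5g3 was the quantity that passed the threshold among the 7 isoform ratios tested. As log2 of the CPM ratio it was -5.40, -5.32, -5.33, -5.30 and -5.41 in KO replicates 1 to 5, against -4.95, -4.91, -5.05, -5.00 and -4.92 in WT replicates 1, 3, 4, 5 and 6. The groups did not overlap. The ratio fell by 0.39 in KO libraries (SE 0.06, interval -0.52 to -0.25), to 0.765 of that in WT libraries, with an adjusted p of 0.0284 over all genes and ratios (limma). By litter it was -0.41 (108), -0.35 (110) and -0.40 (112). That Atp5g2 differed was known when the pair was chosen, so the ratio is no independent support for it. The fit takes the expected spread from the level, and each ratio was placed at the mean level of its 2 genes. That is above the 3.68 log2 CPM of Atp5g2. The SE was 0.06 for the ratio and 0.08 for Atp5g2, although SDs within groups were no smaller for the ratio. Without this trend the adjusted p was 0.300 for the ratio and 0.277 for Atp5g2 (limma). The lower adjusted p of the ratio in the reported fit therefore rests on this placement.

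The ratio's call was lost without WT replicate 1 (adjusted p = 0.104), KO replicate 3 (0.0655), WT replicate 6 (0.0522) and WT replicate 5 (0.0506), with quantile normalization (0.0507) and with a constant prior variance in place of the trend (0.300), all in limma. It held in the other 13 of 19 alternatives. The difference of the ratio lay between -0.41 and -0.36 in all of them. Fat cell markers were also lower in the KO libraries: 5 of 5 tested were below 0, with a median of -0.98 log2, and the summed CPM of 6 listed ran from 9.10 to 14.1 in KO libraries and from 17.0 to 30.0 in WT libraries. None of them passed the threshold, 5 had an unadjusted p under 0.05 and 4 passed with litter and genotype only. Of all genes tested, 10.1% had such an unadjusted p and 3.48% were called lower with litter and genotype only. The part of fat cells in the Atp5g2 values was not tested.

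Atp5e, the epsilon subunit of the central stalk, had 6.26, 6.38, 6.34, 6.44 and 6.29 log2 CPM in KO replicates 1 to 5, against 6.60, 6.63, 6.50, 6.45 and 6.62 in WT replicates 1, 3, 4, 5 and 6. KO replicate 4 and WT replicate 5 nearly met, and no values crossed. The difference was -0.22 (SE 0.07, interval -0.36 to -0.07), with an adjusted p of 0.287, and of 0.0306 with litter and genotype only (limma). Atp5h, subunit d of the peripheral stalk, ran from 7.23 to 7.39 in KO and from 7.30 to 7.69 in WT libraries, which overlap, with a difference of -0.17 (-0.34 to 0.01, adjusted p = 0.518, limma).

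The beta and alpha subunits of the catalytic head of complex V, which are its most abundant transcripts per kilobase, had differences near 0. Atp5b averaged 11.15 ± 0.03 log2 CPM in KO and 11.16 ± 0.06 in WT libraries, with a difference of -0.02 (-0.17 to 0.14). Atp5a1 averaged 11.11 ± 0.03 in KO and 11.14 ± 0.05 in WT libraries, with a difference of -0.03 (-0.18 to 0.12). The central stalk subunits Atp5c1 (gamma) and Atp5d (delta) differed by -0.06 and 0.0017, and Atp5d was the member of the complex above 0. In the peripheral stalk, Atp5o, the subunit that joins it to the catalytic head, differed by -0.11 and Atp5j by -0.06, both with overlap.

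The small membrane subunits of complex V, several of which serve the pairing of the enzyme along the cristae, were Atp5k (-0.13), Atp5md (-0.11), Atp5mpl (-0.09), Atp5j2 (-0.05) and Atp5l (-0.03). The groups overlapped in all 5.

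Across all complexes the groups did not overlap in 8 of 49 members (16.3%), against 16.2% of all genes tested, so the share was close to the background. These were Uqcr10, Uqcrb, Cox4i2, Cox5b, Cox6a1, Atp5e, Atp5g2 and Atp5pb, the b subunit of the peripheral stalk, whose difference was -0.05. In all 8 the KO libraries were the lower ones, a pattern seen in 7.63% of all genes.

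The common direction was small. Of the 49 members 43 (87.8%) had a difference below 0, against 51.4% of all genes tested, with a median of -0.04 log2 against -0.0041. The members' sum ran from 14607 to 15567 CPM in KO libraries and from 15089 to 16571 CPM in WT libraries, which overlap. Members share libraries and are not replicates of the genotype, so the count carries no test.

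Much of this direction lay in a few libraries. WT replicate 5 had the highest median deviation of the members from their means, 0.11 log2, and was the highest library in each complex. KO replicate 5, of the same litter, was the lowest library over all members, at -0.077. Without WT replicate 5 the median difference was -0.022 with 31 members below 0, and that of complex IV was 0.017, and without KO replicate 5 the median was -0.022 with 35 below 0. Without KO replicate 3 it was -0.071 and without WT replicate 6 it was -0.067.

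The litters differed in it. The median difference of the members was -0.048 in litter 108, with 38 below 0, 0.0019 in litter 110, with 23 below 0, and -0.086 in litter 112, with 44 below 0. Complex II (0.030) and complex IV (0.027) were above 0 in litter 110, and complexes III (-0.030) and V (-0.0035) were below. Each litter holds 1 or 2 libraries of a genotype, so no test was made within them.

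**Figure D4:**
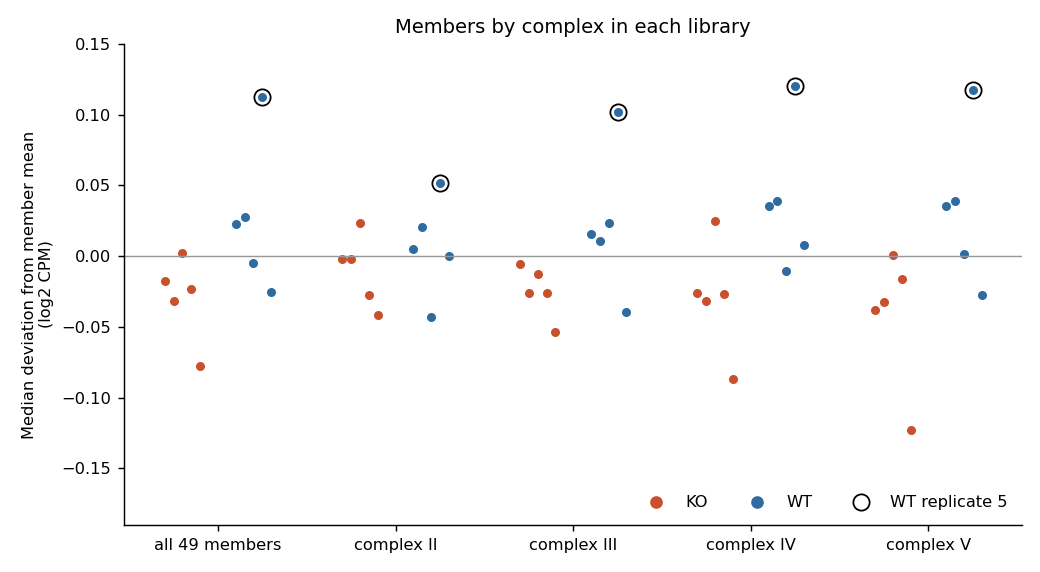
Median deviation of the members from their own means (y axis, log2 CPM) in each library, for all 49 members and for complexes II to V (KO in orange left of WT in blue, 5 libraries each, replicates in label order; WT replicate 5 ringed). WT replicate 5 is the highest point of each set, at 0.11 for all members, and the other libraries of the groups overlap or nearly meet.

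The members share short transcripts, and short transcripts as a class lay below 0. The median coding transcript of the members was 0.68 kb, against 2.17 kb for all tested genes, and 39 of 49 were in the shortest of 5 length classes. All 2424 genes of that class had a median difference of -0.027, with 60.1% below 0, and the median was 0.040 in the longest class. The 39 members in the shortest class had a median of -0.049, with 33 below 0. With each library centred within length classes, the median of all 49 members was -0.019 and 34 were below 0.

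**Figure D5:**
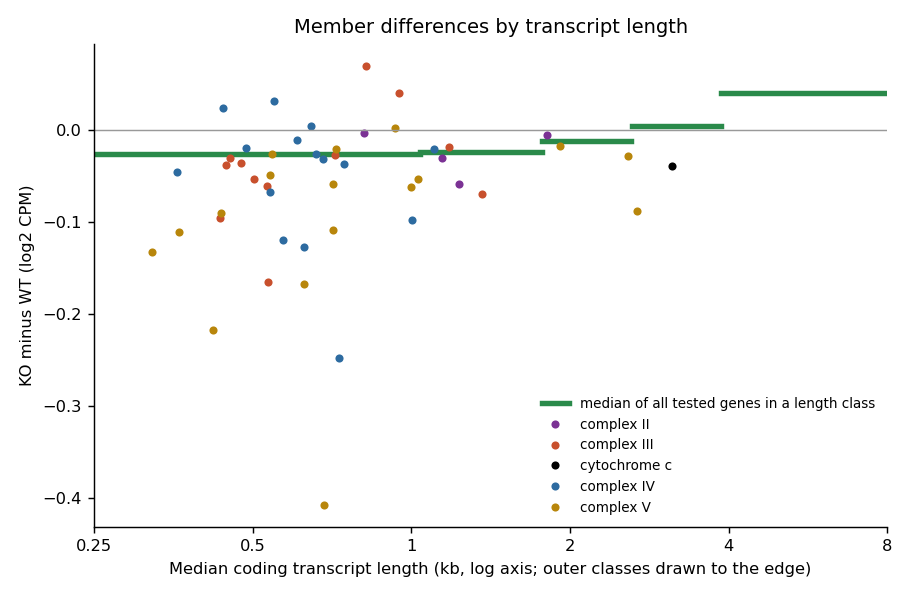
Difference of each member (y axis, KO minus WT in log2 CPM) against its median coding transcript length (x axis, kb on a log axis), coloured by complex, with bars at the median of all tested genes in each of 5 length classes. The bars climb from -0.027 in the shortest class to 0.040 in the longest, and Atp5g2, at -0.41 and 0.68 kb, lies far below its class.

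The partners encoded in mitochondrial DNA were split in direction. Of the 6 measured, mt-Co1, mt-Co2 and mt-Atp8 were above 0 and mt-Cytb, mt-Co3 and mt-Atp6 below, and none passed the threshold. Their intervals were wide, such as -0.28 to 0.28 for mt-Cytb and -0.28 to 0.42 for mt-Co1. All 6 intervals held the members' median of -0.04, so these values cannot show whether the direction was shared. The mt-Co1 transcript, the catalytic core of complex IV, averaged 16.27 ± 0.04 log2 CPM in KO and 16.20 ± 0.05 in WT libraries. The mt-Co3 transcript averaged 12.39 ± 0.13 in KO and 12.56 ± 0.17 in WT libraries, a difference of -0.17 (adjusted p = 0.681, limma).

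Factors that assemble these complexes or otherwise serve them had a median difference close to that of the members. Of 36 listed, 35 were tested and Pet117 was under the minimum. Of the 35, 26 were below 0, with a median of -0.05 log2. Over all genes tested 51.4% were below 0, with a median of -0.0041. None of the factors passed the threshold or had an unadjusted p under 0.05. The closest were Cox14, at -0.14, Cox18, at -0.23, Ttc19, at -0.12, and Cmc1, at -0.14, which serve complexes III and IV. Ndufa4, which is named for complex I and copurifies with complex IV, had a difference of -0.10 (adjusted p = 0.669, limma).

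Muscle fibre types differ in their content of mitochondria, so markers of slow fibres are given beside these values. Oxidative fast fibres had no list of their own. Of 8 slow-fibre genes, 4 were below 0 and 4 above, and none passed the threshold. The 2 genes Atp2a2 and Casq2 had an unadjusted p under 0.05, did not overlap between groups, and passed with litter and genotype only (adjusted p = 0.0365 and 0.0285, limma), in opposite directions. Atp2a2, the slow calcium pump, averaged 5.37 ± 0.07 log2 CPM in KO and 5.16 ± 0.08 in WT libraries (adjusted p = 0.331, limma), and Casq2, the slow calsequestrin, averaged 4.85 ± 0.14 in KO and 5.23 ± 0.14 in WT libraries (adjusted p = 0.183, limma). Myh7, the slow myosin heavy chain, had the largest difference of the list, 0.98 (-0.17 to 2.12, adjusted p = 0.572, limma). It was low, at 1.69 ± 0.92 log2 CPM in KO and 0.72 ± 0.85 in WT libraries, which overlap. The summed CPM of the slow-fibre list ran from 104 to 112 in KO and from 103 to 117 in WT libraries. Atp2a2 and Casq2 had the highest levels of the list, so their opposite differences offset each other in this sum. The part of fibre type in the members' values was not tested.

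Reads of these genes can be shared with copies elsewhere. The gene names list 8 pseudogenes named after Atp5c1, Atp5k, Atp5l, Cycs and Uqcrh, none of which has a row in the table, so the values of these 5 members are less certain. Pseudogenes under other names were not looked for, so the other members may have copies too. The members lie on 19 chromosomes, with at most 5 on any of them.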

How the data were processed

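Total RNA (TRIzol) went into directional oligo-dT libraries from BGI/MGI, per the labels' protocols. The submitters' processing notes list fastp, kallisto and limma with no versions. Genome build, annotation and adjustment terms were not given in the sources used here. What the authors deposited is a table of adjusted log2 CPM for 13492 genes. With litter and genotype fitted, the residuals of all genes span 3 of 6 dimensions, so 3 further terms had been removed before deposit. SDs leave out the variation removed, and depth per library is unknown, so no counting interval is given.

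The 12223 genes whose mean log2 CPM reached 0 (1269 did not) were tested with limma 3.58.1 in R 4.3.3 (lmFit, eBayes with trend, two-sided, KO minus WT), with genotype, litter and the 3 removed directions as terms and no pseudocount. The 7 isoform ratios for which both genes had a row, of 8 planned, were appended as rows. Benjamini-Hochberg adjustment ran over all of these, with a threshold of 0.05. Intervals of differences are 95%. The fit of single genes was tested on simulated data, which held no isoform ratios.

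Positions and lengths were read from GENCODE M21 (GRCm38) by Ensembl identifier, which found 98.7% of genes and all 49 members; 2 members, Atp5pb and Atp5md, carry other names there. Promoters came from RefSeq on GRCm38.p6; 3 members had 2 entries and the first was used.

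Genes described by their library values, group means or intervals were all of complex II, Cyc1, Cycs, both genes of each pair, and in complexes III, IV and V the 3 with the smallest p and the 2 highest per kilobase; other members are named with a difference, and Uqcrc2 also with an interval. The members, lists and tests were chosen with earlier results of these data known. Alternatives changed the terms, filter, trend, scaling, length and libraries used.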

Additional observations from a re-analysis of the deposited data

Results flagged for a closer look

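Of 112 sets of 5 libraries examined (member levels and isoform ratios, by genotype), 4 had 1 library far from the rest by Dixon's criterion; chance marks about 1 set in 20. WT replicate 5 was the highest WT library and far from the next for 3 genes. It had 7.74 log2 CPM of Sdhd, a complex II anchor, with the next WT library at 7.65. It had 8.94 log2 CPM of Uqcrc2, a complex III core subunit, with the next at 8.72. It had 9.30 log2 CPM of Cox4i1, the main form of complex IV subunit 4, with the next at 9.13. The same library was the highest in the members' median of each complex. For Atp5g2, WT replicate 4 was the lowest WT library, at 3.81 log2 CPM with the next at 3.90; it still lay above all KO libraries, and the adjusted p without it was 0.0268 (limma).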

How the results depend on the processing

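The count of members past the threshold was 0 in the reported fit, 5 with litter and genotype only, 1 without the litter term, 1 with the replicate block and from 0 to 1 with each library left out. Where it was 1, the gene was Atp5g2. Libraries of the same replicate number had correlations of -0.85, 0.45, 0.03 and -0.50, and replicate 4 spans 2 litters. These were taken after terms were removed from the values, so they cannot show whether replicate numbers pair the libraries. With the replicate block the Atp5g2/Atp5g3 difference was -0.38 (adjusted p = 0.0208, limma). That fit called 99 genes higher and 32 lower, against 33 and 8 in the reported fit. The count of isoform ratios past it was 1, and 0 without the variance trend (difference -0.39), 0 with quantile normalization (-0.36, adjusted p = 0.0507, limma) and 0 to 1 with each library left out (-0.41 to -0.37). The cause of these changes was not tested. Without the trend 1 gene in the table was called at all. In litter 110 23 members were below 0, and the medians were 0.030 for complex II, 0.027 for complex IV and -0.0035 for complex V; in litter 112 they were -0.086 for all members, -0.075 for complex II and -0.112 for complex IV. Leaving out each library gave -0.071 to 0.017 for complex IV. With the longest transcripts the log2 ratios per kilobase were 5.24 for Cox6a2/Cox6a1, 0.65 for Cox7a1/Cox7a2, -0.95 for Cox7a2l/Cox7a2, -2.70 for Atp5g1/Atp5g3 and -4.96 for Atp5g2/Atp5g3; with the principal ones, added after seeing the data, the last 4 were 0.95, -0.88, -2.95 and -5.17. No called value changed sign in these alternatives. Depth is unknown, and Cox4i2, Cox6a1, Atp5g2 and Cox8a have the lowest CPM and so the least certain values.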

Other observations

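Among the partners encoded in mitochondrial DNA, mt-Co2, a complex IV subunit, stood at 8.99 ± 0.24 log2 CPM per kilobase in KO and 8.82 ± 0.14 in WT libraries (SD, n = 5 each). The other 2 complex IV partners were at 15.64 ± 0.04 in KO and 15.57 ± 0.05 in WT libraries (mt-Co1), and at 12.74 ± 0.13 in KO and 12.91 ± 0.17 in WT libraries (mt-Co3). The mt-Co2 level therefore lay below that of the nuclear-encoded Cox4i1 (9.54 over all libraries). What sets it was not tested.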
